A study of Mus musculus with 6 samples.

Results

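Expression of the genes that make, sense and export cholesterol was compared between upper-layer astrocytes (ULAs, from approximately layers II–IV) and deep-layer astrocytes (DLAs, from layers V and VI) of the mouse somatosensory cortex. The set held 35 genes listed by symbol for their known roles, and 34 of them matched a row of the deposited table, which has 43383 rows. Hmgcs1 was not analysed here. Abcg1 was listed at 0 to 0.1 RPKM and stayed below the filter on low values, so 33 genes were tested. RPKM gives the reads of a gene corrected for mRNA length and for library size, so levels of different genes can be set side by side.

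All 6 libraries came from male Aldh1l1-eGFP mice at 4 weeks of age with no treatment, 1 library for each layer of 3 brains. In this line a transgene under the Aldh1l1 promoter labels astrocytes with GFP, and GFP-positive cells were sorted from dissected layers. Layer I, the meninges and the corpus callosum were trimmed away, and some tissue at the border of layers IV and V was discarded. RNA was extracted with either of a pair of reagents, and the sources used here do not give which library had which. The upper and the deep library of a brain form a pair.

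Depth, recovered from the spacing of low values, was 19.6 to 29.6 M reads per library, lowest in the DLAs of brain 2. The sorted cells carried astrocyte markers at high level, with 8 markers summing to 10507.8 to 12083.0 RPKM per library. Neuronal markers summed to 5.2 to 7.8 RPKM over 8 genes. Oligodendrocyte markers differed between the layers: 9 genes (Mog, Mag, Mbp, Mobp, Cnp, Ermn, Opalin, Cldn11 and Ugt8a) summed to 65.2 to 107.1 RPKM in ULAs and 123.1 to 143.8 RPKM in DLAs. Of the 8 that were tested, 8 had lower fitted values in ULAs and 6 passed the test, and none of the 9 was listed at 0 in any library. Among ULAs the highest sum, 107.1 RPKM, was that of brain 3, against 73.2 and 65.2 RPKM in brains 1 and 2. Markers of other cells were low, and some of their sums also did not overlap between the layers. The sums were 12.9 to 13.8 RPKM in ULAs and 8.6 to 11.7 RPKM in DLAs for 6 microglial genes. For 4 meningeal fibroblast genes they were 3.1 to 4.1 and 5.0 to 6.3 RPKM. Most of each sum came from a single gene. P2ry12 had 12.07, 11.63 and 12.6 RPKM in ULAs and 10.08, 7.76 and 10.22 RPKM in DLAs. Col1a1 had 3.29, 2.49 and 2.76 RPKM in ULAs and 4.73, 5.66 and 3.67 RPKM in DLAs. The microglial gene C1qa, at low level, was higher in DLAs within each brain. Of 4 pericyte and smooth muscle genes, 1 (Rgs5) passed as higher in ULAs, at 1.98, 2.06 and 2.7 RPKM against 1.01, 0.75 and 0.93 RPKM in DLAs. The part of these cells in the results was not tested.

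Cholesterol does not cross the blood-brain barrier, so brain cells make their own, and astrocytes are known as a main source for neurons. Acetyl-CoA is turned into mevalonate and then squalene, squalene is closed into a sterol ring, and the ring is trimmed to cholesterol. When sterol falls, SCAP carries SREBP factors out of the endoplasmic reticulum, where INSIG proteins otherwise hold it, and the cleaved SREBP switches on the synthesis genes, often together with NF-Y bound at a CCAAT box. Surplus cholesterol is sensed through LXR receptors, loaded by ABC transporters onto particles with apolipoprotein E and clusterin, and taken up by neurons through receptors such as LRP1.

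The synthesis genes share a promoter feature that was not used in choosing them. Promoters, from 250 bases before to 50 bases after the transcription start, were taken from RefSeq on GRCm38.p6 and existed for 12 of the 15 synthesis enzymes in the table and for 15 of the other 19 genes. CCAAT, the core of the NF-Y site, was found on either strand in 12 of 12 enzyme promoters, in 53.3% of the other 15 genes and in 41.1% of all 27025 genes with a promoter. CACNCCAC, the core of the sterol regulatory element that SREBP binds, was found in 0 of 12 enzyme promoters, in those of Acat2 and Insig1 among the other genes, and in 7.12% of all genes. CACGTG, an E-box to which SREBP-1 can also bind, was present in 3 of 12 enzymes (Dhcr7, Hsd17b7 and Sc5d), in 20% of the others and in 8.09% of all genes. A match is only a match of letters in this window.

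The promoters shown are those of 3 mevalonate-pathway enzymes and Acat2, which are among the 5 genes with the most negative fold changes, of Dhcr7, an abundant enzyme of the ring steps, and of Insig1, whose promoter holds all 3 kinds of match. Capitals mark CCAAT, CACNCCAC or CACGTG or their reverse complements, and each sequence reads 5′ to 3′ on the strand of its gene. Pmvk lies at chr3:89454291-89454590 (plus strand), Mvd at chr8:122443373-122443672 (minus), Mvk at chr5:114444019-114444318 (plus), Dhcr7 at chr7:143829964-143830263 (plus), Acat2 at chr17:12960676-12960975 (minus) and Insig1 at chr5:28071162-28071461 (plus). Where RefSeq gives several starts, as for Pmvk (2) and Dhcr7 (3), the start with the most matches is shown, and the E-box of Dhcr7 lies at another of its starts. The matches shown do not overlap each other.
Pmvk: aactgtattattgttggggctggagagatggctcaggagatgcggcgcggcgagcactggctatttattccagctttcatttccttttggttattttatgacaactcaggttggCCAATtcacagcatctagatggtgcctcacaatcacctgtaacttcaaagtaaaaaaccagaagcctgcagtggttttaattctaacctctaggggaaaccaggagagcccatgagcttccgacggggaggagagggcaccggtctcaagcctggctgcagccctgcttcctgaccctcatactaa
Mvd: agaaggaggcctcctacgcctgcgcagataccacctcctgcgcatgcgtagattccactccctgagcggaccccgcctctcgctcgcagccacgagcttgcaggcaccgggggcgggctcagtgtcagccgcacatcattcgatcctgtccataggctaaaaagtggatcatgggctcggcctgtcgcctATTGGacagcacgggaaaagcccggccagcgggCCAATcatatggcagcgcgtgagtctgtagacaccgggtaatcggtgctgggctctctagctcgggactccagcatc
Mvk: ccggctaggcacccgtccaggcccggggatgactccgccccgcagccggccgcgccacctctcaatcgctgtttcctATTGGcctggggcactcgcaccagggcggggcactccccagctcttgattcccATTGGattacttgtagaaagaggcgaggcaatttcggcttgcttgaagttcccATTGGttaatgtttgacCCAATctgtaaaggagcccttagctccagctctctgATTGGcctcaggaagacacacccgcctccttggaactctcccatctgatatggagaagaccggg
Dhcr7: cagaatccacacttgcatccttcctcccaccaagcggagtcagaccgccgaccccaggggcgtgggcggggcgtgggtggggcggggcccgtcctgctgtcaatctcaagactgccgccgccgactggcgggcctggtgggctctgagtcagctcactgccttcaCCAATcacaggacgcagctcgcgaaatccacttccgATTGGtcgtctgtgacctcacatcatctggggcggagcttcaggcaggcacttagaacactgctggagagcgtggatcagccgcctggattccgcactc
Acat2: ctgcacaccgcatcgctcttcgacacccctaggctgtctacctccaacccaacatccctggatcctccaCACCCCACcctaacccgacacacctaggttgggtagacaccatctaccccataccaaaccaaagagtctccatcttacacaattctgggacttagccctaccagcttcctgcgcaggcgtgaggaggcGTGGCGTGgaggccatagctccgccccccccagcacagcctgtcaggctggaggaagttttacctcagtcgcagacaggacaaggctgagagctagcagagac
Insig1: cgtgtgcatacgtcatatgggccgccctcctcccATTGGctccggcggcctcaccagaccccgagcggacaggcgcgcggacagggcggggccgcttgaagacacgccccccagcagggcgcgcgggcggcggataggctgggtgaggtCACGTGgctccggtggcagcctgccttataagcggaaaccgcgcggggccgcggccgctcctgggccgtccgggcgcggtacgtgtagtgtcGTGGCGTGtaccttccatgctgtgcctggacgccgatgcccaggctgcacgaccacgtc
The first base of the CCAAT match of Pmvk lay at −136 from the start site, and those of Mvd at −27 and −60. Mvk had 5 matches between −173 and −14. The CACNCCAC matches of Acat2 began at −181 and −53, and that of Insig1 at −9.

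Differences between the layers were small for the whole set. In limma, fitted on log2(RPKM + 1) with brain and layer as terms for the 13999 rows with a mean of at least 1 RPKM, 1 of 33 genes passed at an adjusted p under 0.05 as higher in DLAs, where 0.914% of all tested rows did so, and 0 of 33 passed as higher in ULAs, where 0.714% of rows did. At an unadjusted p under 0.05 the numbers were 11 genes higher in DLAs (10.8% of all rows) and 2 higher in ULAs (5.64% of all rows). The median log2 fold change (ULAs minus DLAs) was −0.17 over the 33 genes and −0.03 over all tested rows. For the 33 genes it was −0.09 under quantile normalization and −0.10 without brain 2. By brain, 17 of 33 genes had lower values in ULAs in 3 of 3 brains, as did 23.2% of all rows, and 6 had higher values in ULAs in 3 of 3 brains, as did 15.2% of all rows. Layers did not overlap for 2 genes with DLAs above (9.27% of all rows) and for 3 with ULAs above (6.59% of all rows).

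**Figure D1:**
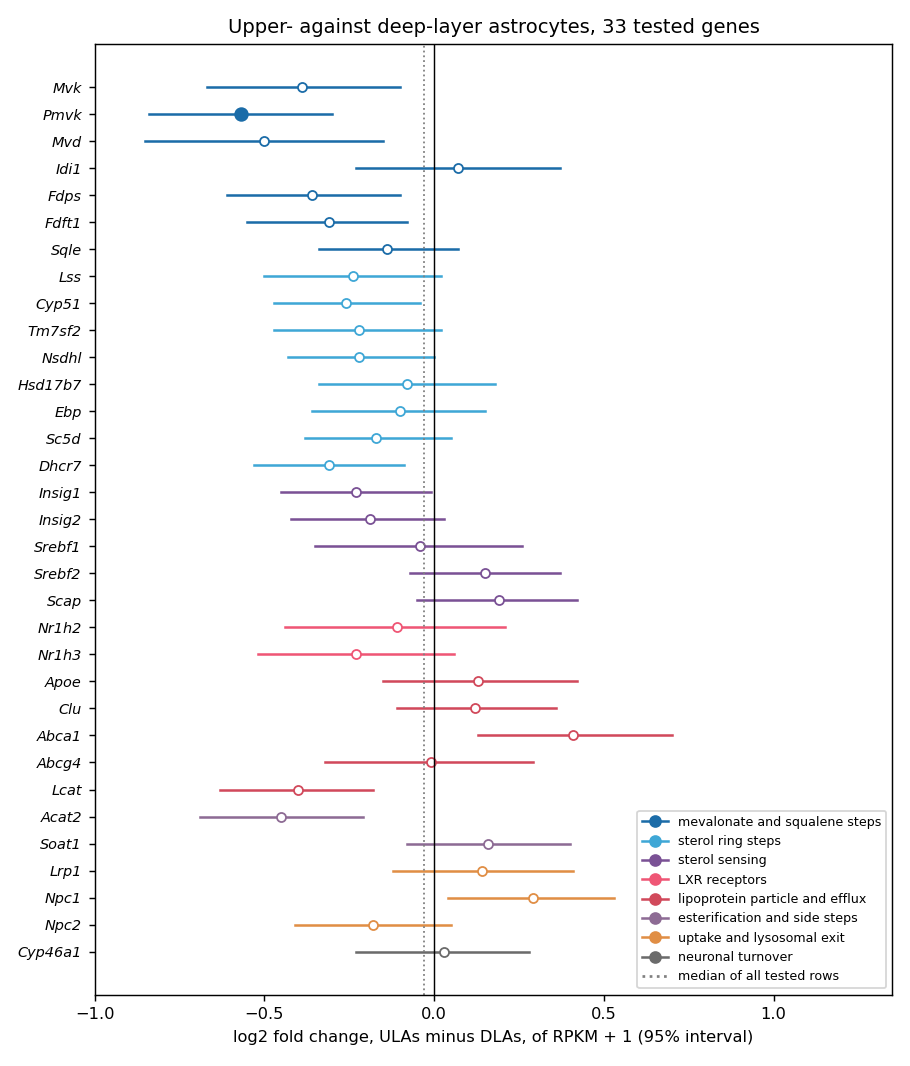
Log2 fold change of RPKM + 1 (ULAs minus DLAs) with its 95% interval from limma for the 33 tested genes, ordered and coloured by role. The filled point is the gene that passed (Pmvk), open points did not pass, and the dotted line is the median of all tested rows, −0.03. Most synthesis enzymes lie to the left of 0, whereas Abca1 and Npc1 lie to the right.

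The synthesis enzymes leaned one way. Of the 15 tested, 14 had lower fitted values in ULAs, against 55.0% of all rows, and their median log2 fold change was −0.24. Of these 15, 11 had lower values in ULAs in 3 of 3 brains (23.2% of all rows) and 0 higher values in 3 of 3 (15.2%). In limma 8 were higher in DLAs at an unadjusted p under 0.05 (10.8% of all rows), and 1 passed over all rows tested (0.914%). The median was −0.36 for the 7 genes of the mevalonate and squalene steps and −0.22 for the 8 genes of the sterol ring steps. Without brain 2 these medians were −0.20 and −0.14, and in brain 3 alone their order was the other way, at −0.13 and −0.21. Across brains the layers overlapped for all 15 enzymes. In a sorted bulk sample, fewer cells of a type and less RNA per cell cannot be told apart.

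Pmvk, phosphomevalonate kinase, phosphorylates mevalonate phosphate and was the member that passed. Its row has 6 exons on chromosome 3 from 89263040 to 89272931 (mm9, the build listed in the submitters' processing notes). In brains 1, 2 and 3, ULAs had 38.2, 37.65 and 54.33 RPKM, and DLAs had 53.14, 70.29 and 70.29 RPKM. The ULA value of brain 3 lay just above the DLA value of brain 1, so the groups overlapped, but within each brain DLAs were higher. The log2 fold change was −0.57 (limma, adjusted p = 0.0482, SE 0.12). The gene passed in 2 of 11 alternatives. Its call was lost, among others, without brain 1 (adjusted p = 0.0542) or brain 2 (0.09), without the brain in the limma model (0.339) and after a correction for mRNA length (0.0935). The log2 fold changes in these fits were −0.62, −0.42, −0.57 and −0.49. The lowest adjusted p among the alternatives was 0.000469, without brain 3, and the highest 0.414, without the filter.

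Mvd, mevalonate diphosphate decarboxylase, makes isopentenyl diphosphate, the building block of all sterols. It stood at 63.74, 66.29 and 107.05 RPKM in ULAs and at 95.61, 128.08 and 105.29 RPKM in DLAs of brains 1, 2 and 3. In brains 1 and 2 the DLA value was well above, whereas in brain 3 the layers were nearly equal. Its log2 fold change of −0.50 (SE 0.16) did not pass (adjusted p = 0.16, limma), and without brain 3 it was −0.76 (adjusted p = 4.22e-05, the lowest of an alternative range reaching 0.517). Without brain 2 it was −0.28 (adjusted p = 0.414, limma).

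Mvk, mevalonate kinase, acts just before Pmvk. Its values were 52.26, 43 and 72.16 RPKM in ULAs and 58.51, 73.8 and 85.56 RPKM in DLAs. DLAs were higher in each brain, most in brain 2, and the groups overlapped. For Mvk the change was −0.39 log2 units (limma, adjusted p = 0.176, SE 0.13), and without brain 3 it was −0.46 (adjusted p = 0.0229, the lowest of a range reaching 0.549). Without brain 2 it was −0.20 (adjusted p = 0.422, limma).

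Further along the same branch, Fdps, which makes farnesyl diphosphate, averaged 40.4 ± 6.82 RPKM in ULAs (SD, n = 3) and 51.8 ± 6.18 RPKM in DLAs. Fdft1, squalene synthase, averaged 119 ± 28.5 and 147 ± 26.3 RPKM. Both had lower values in ULAs in 3 of 3 brains, with log2 fold changes of −0.36 and −0.31, and neither passed with all brains (adjusted p = 0.165 and 0.192, limma). Without brain 3 both passed (adjusted p = 0.0334 and 0.0306, limma), the lowest of ranges that reached 0.483 and 0.716. Without brain 2 their log2 fold changes were −0.22 and −0.20. Of the Fdft1 mRNA, 27.0% overlaps exons of Ctsb on the opposite strand, and the library kit does not mark strand, so reads there cannot be assigned. Ctsb was abundant, with a mean of 324.27 RPKM.

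Sqle, squalene epoxidase and a known control point of the pathway, was with Dhcr7 the most abundant of the 15 enzymes, at 242 ± 32.8 RPKM in ULAs, against 265 ± 21.3 in DLAs (change −0.14, 95% interval −0.34 to 0.07). Idi1, isopentenyl diphosphate isomerase, was the least abundant at 4.63 ± 0.692 and 4.38 ± 0.875 RPKM, resting on 228 to 455 reads per library. It was also the only enzyme of the 15 with a positive log2 fold change, 0.07, with an interval from −0.23 to 0.37 that reaches both signs.

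Among the sterol ring steps, Dhcr7, which carries out a last reduction to cholesterol, had 214 ± 43.8 RPKM in ULAs and 262 ± 28.8 in DLAs, and its log2 fold change of −0.31 (SE 0.10) was the most negative of the 8 (adjusted p = 0.163, limma). Cyp51, lanosterol demethylase, followed at −0.26 with 61.8 ± 12.7 and 73.7 ± 11.9 RPKM. Both had lower values in ULAs in 3 of 3 brains, and so had Lss, Tm7sf2, Nsdhl and Sc5d, with log2 fold changes between −0.24 and −0.17. Those of Lss and Tm7sf2 were −0.12 and −0.11 without brain 2, and −0.33 and −0.32 without brain 1. Lss closes the ring, and Tm7sf2, Nsdhl and Sc5d reduce, decarboxylate or desaturate it. Hsd17b7, a sterol ketone reductase, and Ebp, a sterol isomerase, differed least, at −0.08 and −0.10, and their direction was not the same in all brains. The 95% intervals of Lss, Tm7sf2, Sc5d, Hsd17b7 and Ebp included 0.

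Added together, the 15 enzymes reached, in brains 1, 2 and 3, 1086.7, 988.2 and 1378.3 RPKM for ULAs and 1250.4, 1362.3 and 1544.4 RPKM for DLAs. The sum was lower in ULAs within each brain, but the ULAs of brain 3 were above the DLAs of brains 1 and 2. The summed oligodendrocyte markers were 73.2, 65.2 and 107.1 RPKM in ULAs and 123.1, 138.4 and 143.8 RPKM in DLAs, with every DLA sum above every ULA sum. In both sums brain 3 was highest within each layer, and the ULAs of brain 2 were lowest of all 6 libraries. Cnp and Mbp made up most of the marker sum. Among DLAs both were highest in brain 2, at 75.33 and 37.97 RPKM, whereas the other markers were highest in brain 3. Cnp alone overlapped between the layers, with 67.71 RPKM in ULAs and 66.79 RPKM in DLAs of brain 3. Oligodendrocytes are known to make much cholesterol for myelin. The part of oligodendrocyte RNA in the enzyme differences was not tested.

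**Figure D2:**
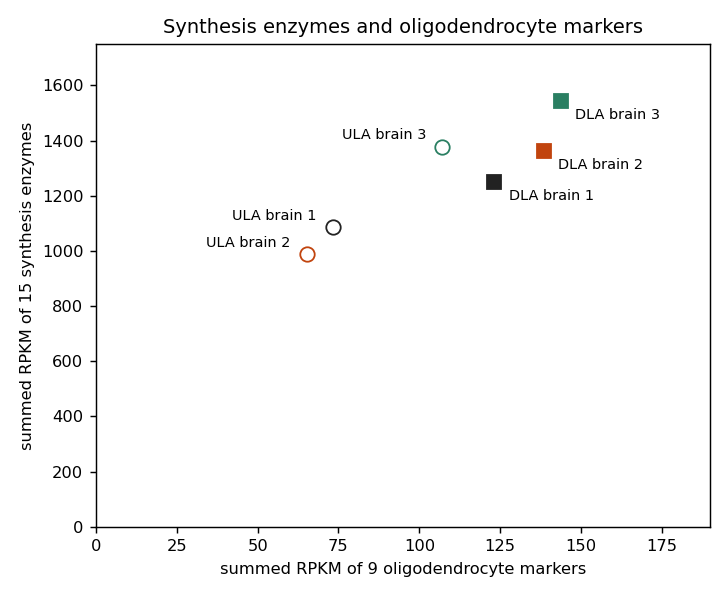
Summed RPKM of the 15 synthesis enzymes (vertical axis) against the summed RPKM of 9 oligodendrocyte markers (horizontal axis) in each of the 6 libraries. Open circles are ULAs, filled squares are DLAs and colours are brains. Cnp and Mbp make up most of the marker sum. The ULAs of brains 1 and 2 lie lowest on both axes and the DLAs of brain 3 highest, at 143.8 and 1544.4 RPKM.

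Length was a further property that moved with the layer ratio. Across all tested rows the log2 ratio of ULAs to DLAs rose with mRNA length, and Spearman's rho over genes was 0.21 for brain 1, 0.368 for brain 2 and 0.1 for brain 3, where genes are not independent replicates. In the tenth of rows with lengths from 1141 to 1574 bases the median log2 fold change was −0.13, and in the tenth from 5635 to 23495 bases it was 0.09. The enzymes had a median length of 2249 bases, near the 2444 bases of all rows, with −0.37 for the 6 enzymes under 2000 bases and −0.22 for the 9 longer ones. After the length trend was removed in each brain, the median of the 15 enzymes was −0.26, that of the 33 genes −0.14 and that of all rows −0.04, and 0 of 33 genes passed in limma.

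**Figure D3:**
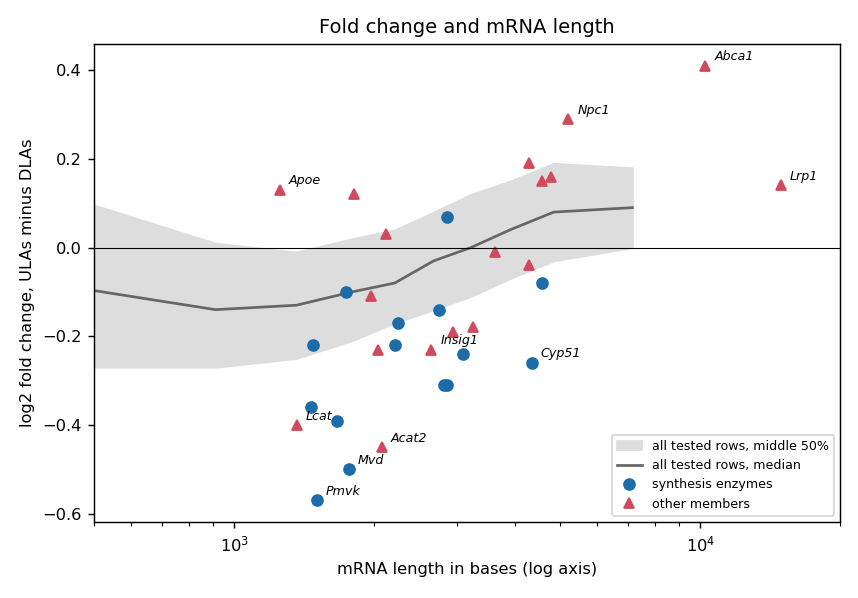
Log2 fold change (ULAs minus DLAs) of the 33 genes against mRNA length in bases on a log axis. The grey line and band are the median and the middle 50% of all tested rows in 10 length bins, from −0.14 in the second bin to 0.09 in the longest. Enzymes are circles, which lie below the line except Idi1 and Ebp (−0.10, at the line), and other members are triangles.

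Acat2 and Soat1, on either side of the synthesis chain, gave estimates of opposite sign. Neither passed with all brains where rows of at least 1 RPKM were tested. Acat2, acetyl-CoA acetyltransferase, joins acetyl-CoA units for the mevalonate pathway. It stood at 37.17, 42.48 and 50.63 RPKM in ULAs and at 54.06, 63.88 and 60.5 RPKM in DLAs. Every DLA value lay above every ULA value. The limma estimate was −0.45 on the log2 scale (SE 0.11, adjusted p = 0.0757). It passed where only rows of at least 5 RPKM were tested (adjusted p = 0.0431) and without brain 3 (0.00345), within a range up to 0.49.

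Soat1, which stores cholesterol as esters, had 41.31, 40.98 and 39.13 RPKM in ULAs and 38.04, 32 and 38.49 RPKM in DLAs. The groups did not overlap, with ULAs above, but in brain 3 they were nearly level and the log2 fold change was 0.16 (95% interval −0.08 to 0.40). It was 0.19, 0.07 and 0.23 without brains 1, 2 and 3, and 0.06 after the length correction.

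Of the 5 genes that sense sterol, none passed. Insig1, which retains SCAP in the endoplasmic reticulum and is itself an SREBP target, had 110.21, 36.83 and 126.62 RPKM in ULAs and 140.53, 40.76 and 145.53 RPKM in DLAs. Both libraries of brain 2 were far below those of the other brains, with log2 differences of −1.65 in ULAs and −1.79 in DLAs from the mean of those brains, and 0.14% of all tested rows were at least as low in that brain in both layers. Within each brain DLAs were higher, and the log2 fold change was −0.23 (limma, adjusted p = 0.278, SE 0.10). Insig2, its paralogue, did not share the low values of brain 2, at 31.9 ± 3.29 RPKM (ULAs) against 36.6 ± 2.99 RPKM (DLAs), a log2 fold change of −0.19.

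The drop of Insig1 in brain 2 was not seen at that size in the enzymes. Relative to the mean of brains 1 and 3, the ULAs of brain 2 ranged from −0.54 for Dhcr7 to −0.13 for Sc5d over the 15 enzymes, and the DLAs of brain 2 from −0.33 for Hsd17b7 to 0.35 for Mvd, all on the log2 scale. Brain differences were not a comparison of the design and were not tested.

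Srebf2, the SREBP that mainly drives cholesterol synthesis, had 50.5, 48.59 and 48.52 RPKM in ULAs and 43.99, 43.15 and 45.63 RPKM in DLAs. Every ULA value lay above every DLA value, which is the opposite side from most enzymes. Its estimate was 0.15 on the log2 scale (limma, adjusted p = 0.483, SE 0.10), and after the length correction 0.05. Scap, the SREBP escort, had 29.28, 24.39 and 22.41 RPKM in ULAs and 25.07, 20.63 and 20.72 RPKM in DLAs (log2 fold change 0.19, 95% interval −0.05 to 0.42), and 18.3% of its mRNA overlaps a row on the opposite strand. Srebf1, which is tied more to fatty acid synthesis, was about as abundant as Insig1, at 96.2 ± 18.7 and 100 ± 24.8 RPKM, with a log2 fold change of −0.04 whose sign differed between brains.

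The LXR receptors switch on cholesterol export, and neither passed the test. Nr1h2 (LXR beta) averaged 27 ± 2.04 RPKM in ULAs and 29.9 ± 7.49 in DLAs, and Nr1h3 (LXR alpha) 5.1 ± 0.395 and 6.16 ± 0.528. Nr1h3 had lower values in ULAs in 3 of 3 brains, with a log2 fold change of −0.23 (95% interval −0.52 to 0.06), whereas the sign of Nr1h2 differed between brains.

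The particle proteins were among the most abundant mRNAs of these cells. Apoe, the apolipoprotein of astrocyte particles, had 14446.3, 12053.3 and 12582.9 RPKM in ULAs and 11359.8, 14263.7 and 10227.4 RPKM in DLAs, and it ranked between 1 and 3 among all rows in every library. In brains 1 and 3 ULAs were higher, and in brain 2 DLAs were higher. For Apoe the estimate was 0.13 on the log2 scale (limma, adjusted p = 0.645, SE 0.13), and without brain 2 it was 0.32 (adjusted p = 0.0489, within a range up to 0.995). Without brain 1 it was 0.03, and without brain 3 it was 0.05. Clu, clusterin or apolipoprotein J, ranked 4 or 5 in every library at 6460.5 ± 302 and 5935.7 ± 528 RPKM, and its log2 fold change of 0.12 had the same signs by brain as Apoe. The Clu value was 0.03, 0.23 and 0.12 without brains 1, 2 and 3, and 0.04 under quantile normalization.

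The transporters and the enzyme that act on these particles had estimates of both signs. None of those tested passed with all brains, and the differences between them were not tested. Abca1, which loads cholesterol onto apolipoproteins, had 16.22, 16.9 and 10.99 RPKM in ULAs and 12.63, 10.29 and 9.15 RPKM in DLAs. ULAs were higher within each brain, and the ULA value of brain 3 fell among the DLA values. Its log2 fold change of 0.41 (SE 0.13) was the largest positive value of the set (adjusted p = 0.151, limma). It was 0.50 without brain 3 (adjusted p = 0.0303, within a range up to 0.512) and 0.28 after the length correction, its mRNA being 10260 bases long. Abcg4, a related transporter, averaged 12.7 ± 0.932 and 13 ± 3.12 RPKM, with a log2 fold change of −0.01. Abcg1 was listed between 0 and 0.1 RPKM, or 0 to 17 reads, so no layer difference was detectable at this depth.

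Lcat esterifies cholesterol on the particles and was more abundant than any synthesis enzyme of the set. It had 552.17, 495.61 and 524.66 RPKM in ULAs and 626.93, 698.64 and 759.38 RPKM in DLAs. Every DLA value lay above every ULA value, opposite to Abca1. The limma estimate was −0.40 on the log2 scale (SE 0.10, adjusted p = 0.0932), between 0.0607 and 0.443 over the alternatives, with −0.32 after the length correction. Its mRNA, at 1362 bases, is among the short ones of the set.

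**Figure D4:**
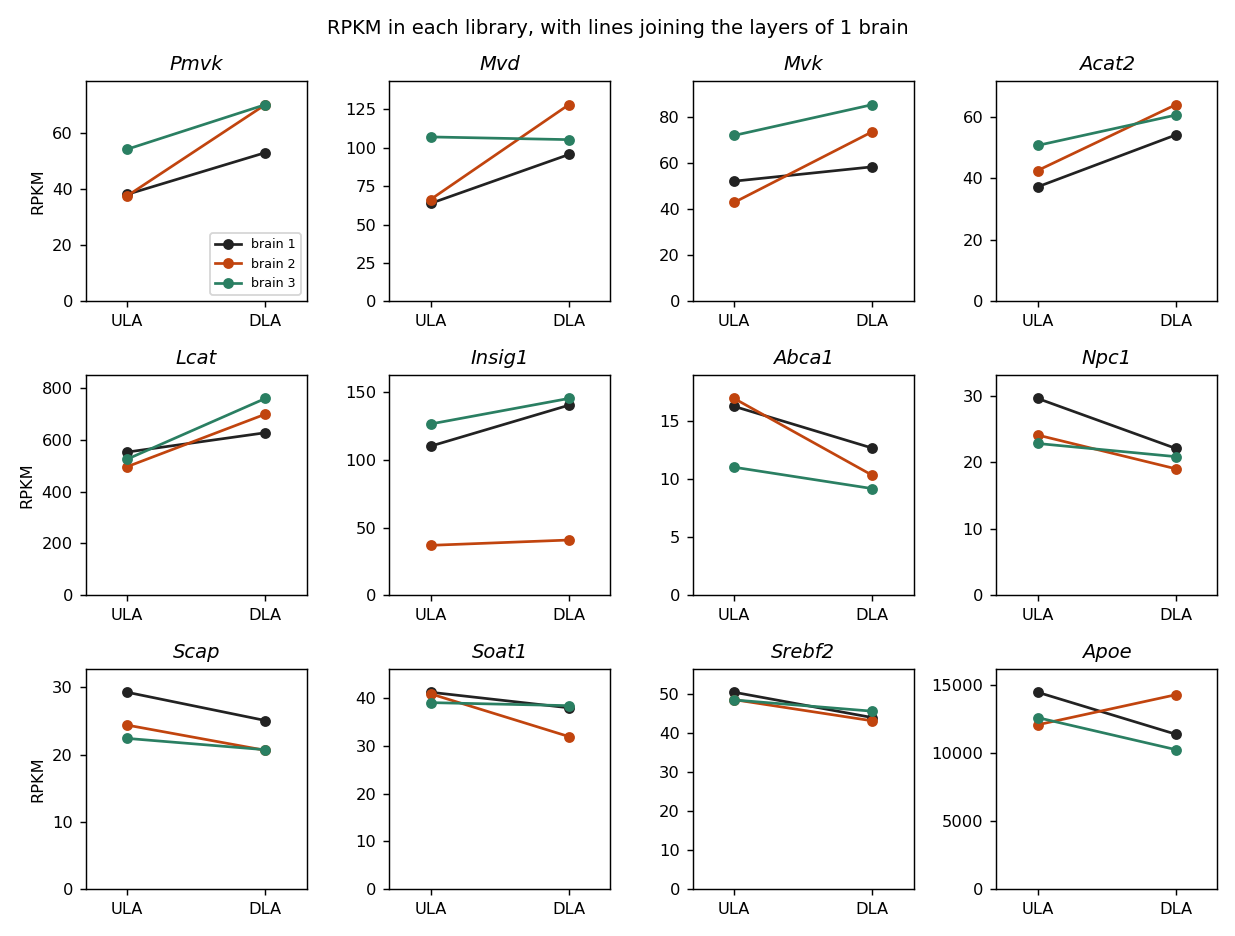
RPKM of 12 of the genes in each library, with ULAs on the left and DLAs on the right of each panel, vertical axes from 0, and lines joining the layers of 1 brain. Pmvk, Mvk, Acat2 and Lcat climb from left to right in each brain, Abca1, Npc1, Scap, Soat1 and Srebf2 descend, Apoe and Mvd are mixed, and Insig1 shows brain 2 at 36.83 and 40.76 RPKM below the others.

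Uptake and lysosomal exit gave small differences. Lrp1, a large receptor for particles with apolipoprotein E, had 12.82, 9.83 and 9 RPKM in ULAs and 10.67, 8.93 and 8.58 RPKM in DLAs. ULAs were higher in each brain, but the groups overlapped, and the log2 fold change of 0.14 (95% interval −0.12 to 0.41) was 0.01 after the correction for its length of 14891 bases.

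Npc1, the membrane protein that passes cholesterol out of lysosomes, had 29.56, 24.06 and 22.79 RPKM in ULAs and 22.04, 18.98 and 20.81 RPKM in DLAs. Every ULA value lay above every DLA value, with a log2 fold change of 0.29 (limma, adjusted p = 0.242, SE 0.11) that was 0.17 after the length correction. Npc2, the soluble protein that hands cholesterol to Npc1, had lower values in ULAs in 3 of 3 brains, at 66.3 ± 4.49 and 75.5 ± 7.64 RPKM (log2 fold change −0.18). The pair thus lay on opposite sides of 0, and the difference between them was not tested.

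Cyp46a1, which hydroxylates cholesterol for removal from the brain and is known mainly from neurons, was present at 48.7 ± 4.37 RPKM in ULAs and 47.8 ± 5.2 in DLAs, while the 8 neuronal markers summed to at most 7.8 RPKM. Its log2 fold change was 0.03 (95% interval −0.23 to 0.28).

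A further 53 symbols from the same pathways were listed, of which 51 had a row and 43 were tested. Their median log2 fold change was −0.02, with 22 negative and 21 positive, 1 that passed as higher in DLAs and 0 as higher in ULAs. At an unadjusted p under 0.05 in limma, 5 were higher in DLAs, where 10.8% of all rows were, and 4 higher in ULAs, where 5.64% were. The gene that passed was Cyp27a1, which makes oxysterols from cholesterol. It had 3.87, 1.85 and 6.83 RPKM in ULAs and 10.52, 7.69 and 14.53 RPKM in DLAs. Each DLA value exceeded each ULA value, with a log2 fold change of −1.28 (limma, adjusted p = 0.00313, SE 0.15). It passed after the length correction (adjusted p = 0.00927) and not without the brain in the limma model (0.286). Scd1, also of this list, did not pass (log2 fold change −0.48, limma, adjusted p = 0.0614) but did after the length correction (0.0303). As with the summed oligodendrocyte markers, brain 3 had the highest Cyp27a1 value in each layer, and the part of oligodendrocyte RNA was not tested.

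The largest positive value of these genes was that of Vldlr, a lipoprotein receptor, at 6.23, 6.06 and 5.38 RPKM in ULAs and 3.37, 3.48 and 3.83 RPKM in DLAs. The layers were well apart, and the limma estimate was 0.59 on the log2 scale (SE 0.14, adjusted p = 0.0695). Sc4mol, the sterol methyl oxidase now called Msmo1, is given as well and was chosen after its values were seen. It was far more abundant than any enzyme of the 15, at 1692.2, 1871.28 and 2357.35 RPKM in ULAs and 1988.31, 2332.51 and 2773.44 RPKM in DLAs. ULAs were lower within each brain and the groups overlapped, with a log2 fold change of −0.26 (limma, adjusted p = 0.198, SE 0.09).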

How the data were processed

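The 6 libraries (3 ULA, 3 DLA) were made with the SMART-Seq v4 and Nextera XT kits and read from a single end. The authors deposited RPKM values for 43383 rows, truncated to 2 decimals, with exon positions and mRNA lengths. The submitters' processing notes name bcl2fastq 1.8.4, CASAVA 1.8.2 and mm9, and the aligner and counting program are not given in the sources used here. Depth was recovered from the value steps of rows up to 500 bases, where at least 99.6% of the values were whole reads after truncation.

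The 13999 rows averaging at least 1 RPKM were fitted on log2(RPKM + 1) in limma 3.58.1 (R 4.3.3), using a model of layer plus brain and eBayes with a trend. Tests were 2-sided and adjusted over those rows (Benjamini-Hochberg). Fold changes on this scale understate those of low genes. The paper compares the layers of 3 brains by a paired test. Whether replicate numbers mark brains was checked: deviations from the layer mean correlated across genes at 0.422, 0.333 and 0.341 for equal numbers and at −0.199 to −0.16 for unequal ones. Deviations from a layer mean cancel within the layer, so the negative values are not separate support. A number was taken as a brain, and whether equal numbers shared a brain or a preparation batch was not tested. An exact permutation test of 3 against 3 reaches 0.1 at the lowest, and of 3 pairs 0.25. The limma p-values combine the spread of a gene among these 3 brains with a variance trend over all tested rows. They therefore do not measure the spread among the brains alone. A gene that did not pass is not shown to be equal in the layers.

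The genes and lists were chosen with earlier results of these data known. Values in every library are given for members that passed, for the 5 largest changes in each direction and for Srebf2, Insig1, Apoe, Abca1 and Lrp1. Means and SD are over 3 brains. Alternatives were no brain term, a pseudocount of 0.1, no filter, a mean of at least 5 RPKM, median centring, quantile normalization, no variance trend, a loess correction for mRNA length (span 0.5) and each brain left out. Python 3.11.15 with pandas 2.3.3, numpy 2.4.6 and matplotlib 3.10.9 was used for tables and figures. Some genes of the lists are not reported here and were left out of the list counts and sums.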

Additional observations from a re-analysis of the deposited data

How the results depend on the processing

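Across the 33 genes and 11 alternatives, 336 of 362 log2 fold changes kept their direction and their side of the threshold, 9 lost the call, all of them those of Pmvk, 8 gained it and 9 changed sign. The number of genes of the set that were higher in DLAs, 1 with the brain as a block, was 0 with no replicate block, a pseudocount of 0.1, no filter, median centring, quantile normalization, no variance trend or the length correction, 2 with a mean of at least 5 RPKM, and 0 to 6 with 1 brain left out. Those higher in ULAs numbered 0 throughout, except for 1 (Apoe) without brain 2 and 1 (Abca1) without brain 3, a range of 0 to 1. Over all rows, 100 were higher in ULAs and 128 in DLAs, against 23 and 18 with no replicate block, 0 and 0 with no filter (1124 and 1675 at an unadjusted p under 0.05 in limma), 65 and 79 with no variance trend, 82 in DLAs with the length correction, and 96 to 431 and 121 to 695 with 1 brain left out, highest without brain 3. Quantile normalization gave 138 and 103 and so turned the balance towards ULAs, and under it the median of the 15 synthesis enzymes was −0.15, against −0.24. That median lay between −0.32 and −0.17 with 1 brain left out. With 1 brain left out, the signs were mixed for Idi1 (−0.01 to 0.12), Hsd17b7 (−0.16 to 0.02), Srebf1 (−0.24 to 0.15), Nr1h2 (−0.31 to 0.10), Abcg4 (−0.18 to 0.12) and Cyp46a1 (−0.08 to 0.16), and quantile normalization turned Srebf1 (0.02) and Abcg4 (0.01). The cause of these changes was not tested.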
